A study of Homo sapiens with 20 samples.

Results

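HIF1A peaks that were called in hypoxia in A549 cells alone and that lay close to a gene start are described here. A549 is a human lung carcinoma line. A peak was selected when its centre lay within 2500 bp of the start of a protein-coding or lncRNA gene and when the region it belonged to held no hypoxia peak of HCT116, RKO or H460. Regions were built by joining hypoxia peaks of the 4 lines that overlapped by at least 1 bp. This rule chose 924 of the 5408 A549 hypoxia peaks, out of 22452 hypoxia peaks and 19625 joined regions over the 4 lines. The members were therefore chosen by the A549 hypoxia call, by the absence of a call in the other lines and by distance, and these values are given as description without a test.

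The study measured HIF1A binding by ChIP-seq, the sequencing of DNA recovered with an antibody against the protein. The lines were HCT116 and RKO, from colon carcinoma, and A549 and H460, from lung carcinoma, each kept for 24 h in normoxia or at 1% oxygen (hypoxia). The labels give no genetic change in any of these groups. Each line and condition had 2 ChIP replicates, and each line had 1 input library of genomic DNA, for 20 samples in all. The replicates were merged before peaks were called, so no value below has a replicate error. The labels of the A549 and RKO inputs contradict themselves on the line, and how a swap would change the calls was not tested. Peak lists hold no expression, so the identity of the lines could not be checked against marker genes.

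HIF1A is the oxygen-dependent subunit of the hypoxia-inducible factor. When oxygen is plentiful it is hydroxylated, bound by VHL and degraded, and when oxygen falls it accumulates, pairs with ARNT and binds the hypoxia response element (HRE). The HRE has the core RCGTG, where R is A or G, so that it reads ACGTG or GCGTG. Classical targets serve glycolysis, pH control, angiogenesis and the modification of collagen, and binding at them is often close to the gene start.

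The HRE core of strong members and of members at known hypoxia genes is shown first, because the core was not used to choose them. Each line gives 29 bases of GRCh37, from 5′ to 3′ on the strand that carries the core, with the core nearest the peak centre in capitals.
PLOD2 (chr3:145879155-145879183, + strand, UTR of PLOD2): ctgcctgcggctACGTGtggaggctcacg
GAPDH (chr12:6643857-6643885, + strand, intron of GAPDH): ggcgggcggaggACGTGatgcggcgcggg
HSP90AB1 (chr6:44213871-44213899, + strand, 5′ of the gene): cgtgctccgtgtACGTGgcggccgcaggg
P4HA1 (chr10:74855318-74855346, - strand, intron of P4HA1): ggaggggcaaagACGTGgcagcagcgttc
LOX (chr5:121412443-121412471, - strand, intron of LOX): ctgggaagtgggACGTGacctcctgggca
CA12 (chr15:63673261-63673289, + strand, intron of CA12): gtgtgtgtgtgtACGTGcacacacacgta
MUC1 (chr1:155163235-155163263, - strand, 5′ of the gene): cagggtagaactGCGTGtggaacgggaca

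Strong members without a core are the counterpart. The 141 bp peak at FAM228B, printed whole in its reference direction, held neither ACGTG nor GCGTG on either strand. Its centre lay 1 bp from the start of FAM228B, and the start of SF3B6, a splicing factor gene, lay within 2500 bp.
FAM228B (chr2:24299325-24299465, + strand, 5′ of the gene): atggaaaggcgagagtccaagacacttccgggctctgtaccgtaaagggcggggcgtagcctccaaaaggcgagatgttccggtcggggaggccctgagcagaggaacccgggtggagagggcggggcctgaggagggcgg

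Most members were weak peaks. Their signal, the tag count scaled to 10 M tags of the library (1 M is 1000000), ran from 2.58 to 64.2 with a median of 4.08, and quartiles of 3.44 and 5.58. The median corresponded to 19 tags. Of the 924 members, 650 held under 5 scaled tags and 61 held 10 or more. The 642 A549 hypoxia peaks near gene starts that were shared with another line had a median of 11.6 scaled tags. Strength entered the choice through the peak call itself, so this difference is given as description.

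The 12 strongest members covered several kinds of gene. PLOD2, the lysyl hydroxylase that modifies collagen, carried the strongest at 64.2 scaled tags, 2353 bp downstream of its start, and the nearest hypoxia peak of another line was 604385 bp away. The second, at 36.3, lay in an intron of FLOT1, a membrane raft protein, 206 bp downstream of its start and 2022 bp from the start of the immediate early gene IER3, and the H460 list held a peak 103 bp away. TPM1-AS followed at 34.1 in a UTR of the tropomyosin gene TPM1. GAPDH, the glycolytic dehydrogenase, had a member of 31.8 in its intron, 204 bp from the start. ID1, an inhibitor of basic helix-loop-helix factors, had a member of 30.5, located 2089 bp downstream of the start and past the gene. FAM228B had 29.4. HSP90AB1, the constitutive HSP90 chaperone, had 21.7 at 16 bp upstream of its start. HEXIM1, an inhibitor of the elongation factor P-TEFb, shared a member of 18.9 with a lncRNA. The other members among the 12 lay at ART1 (23.2), a mono-ADP-ribosyltransferase gene, and at lncRNA genes without a symbol, ENSG00000287733 (27.7), ENSG00000288234 (26.0) and ENSG00000266976 (23.0). FLOT1, TPM1-AS, ID1, FAM228B and ENSG00000288234 had no RCGTG within the 200 bp at the peak centre, and the other 7 had 1 to 3.

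**Figure D1:**
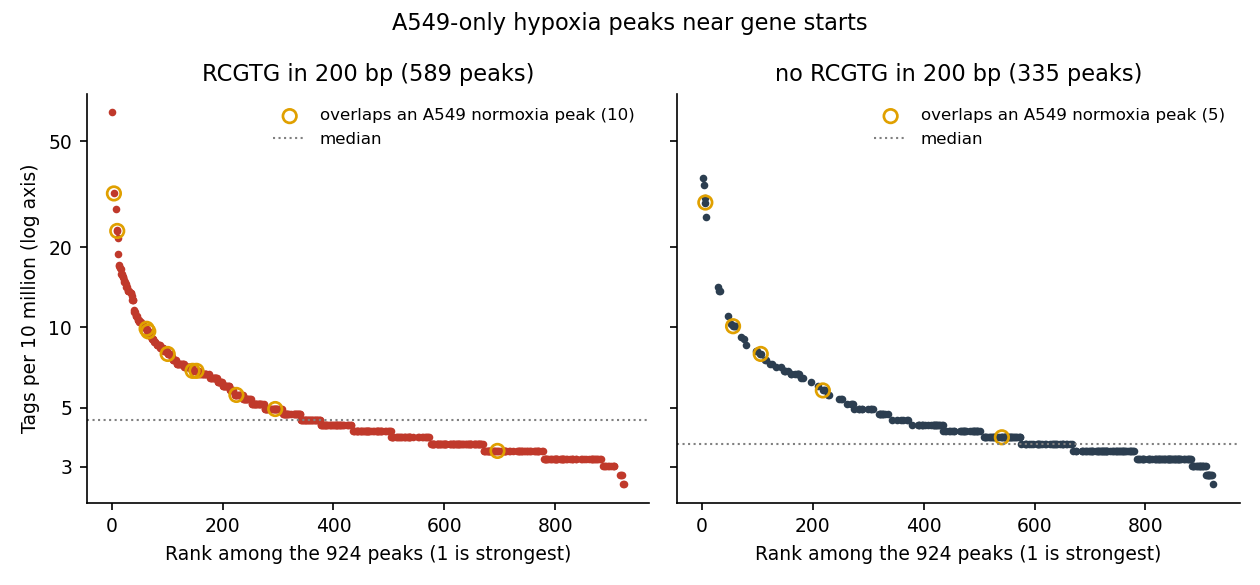
The scaled tag count of each of the 924 members (y axis, tags per 10 M, log axis) against its rank (x axis), with the 589 members that hold an RCGTG core on the left, the 335 that do not on the right and members that overlap an A549 normoxia peak ringed. Members with a core had a median of 4.51 and those without 3.65, and both groups reached above 30.

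Members lay on both sides of gene starts. The nearest gene was protein-coding for 619 and a lncRNA for 305, and over both kinds 211 of the nearest genes had no symbol. A total of 474 members lay downstream of the start and 450 upstream. The median distance was 471 bp, and 286 members (31.0%, Wilson 95% interval 28.1 to 34.0) lay within 200 bp, against 331 of the 642 shared A549 peaks (51.6%, 47.7 to 55.4). By annotation of the centre, 360 were intronic, 257 intergenic, 139 in a UTR, 100 in a noncoding exon and 68 in a coding exon. More than 1 gene start lay within reach of 292 members, and in 246 of these cases the starts were on both strands. At the limit of 2500 bp, the last members inside were at ENSG00000286788 (2493 bp, 4.29 scaled tags) and NFATC2IP (2498 bp, 4.08), and the first peaks outside were at ENSG00000273416 (2511 bp, 3.44) and ENSG00000258313 (2513 bp, 3.22).

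**Figure D2:**
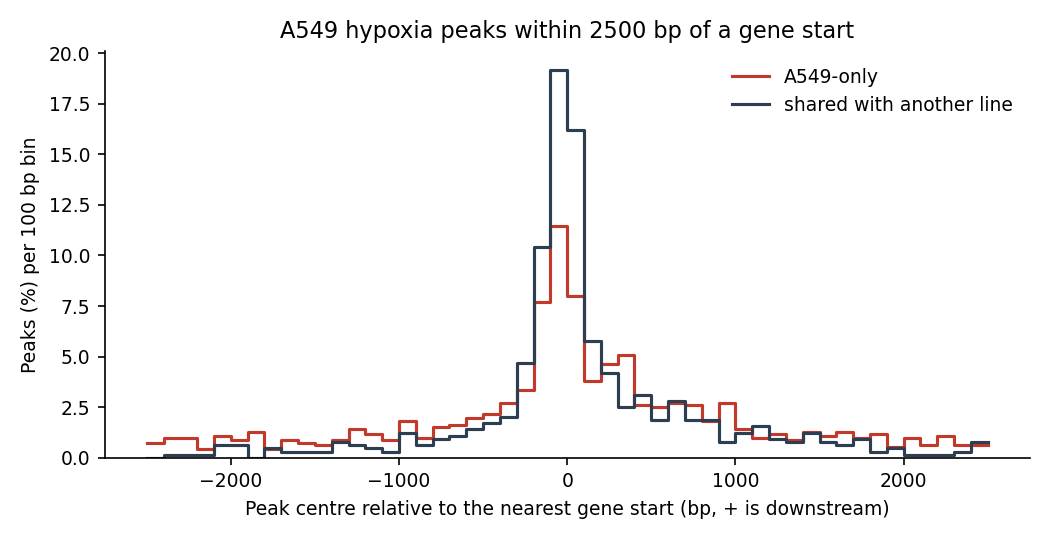
Share of peaks per 100 bp bin (y axis) by the position of the peak centre relative to the nearest gene start (x axis, bp, positive downstream), for the 924 members and the 642 shared A549 peaks. Both curves peak at the start, where 106 members fell in the 100 bp upstream and 74 in the 100 bp downstream, and the members' curve is lower there and higher at the edges.

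The HRE core was tested because it took no part in the rule. RCGTG occurred in the central 200 bp of 589 members (63.7%, 60.6 to 66.8). In windows of the same length 2000 bp to either side it occurred in 25.5%, and in the 200 bp at 38687 gene starts in 36.7%. Over all 5408 A549 hypoxia peaks the share was 52.4%. ACGTG occurred in 39.7% of members, against 9.85% of flanks and 14.9% of gene starts. GCGTG occurred in 40.8%, against 17.9% and 26.6%. A control of like composition, RCGAG (R for A or G), occurred in 44.5% of members, 20.3% of flanks and 39.4% of gene starts. The control was thus also more frequent at members than in their flanks, but its shares at members and at gene starts lay closer together than those of the core.

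Cores lay near the peak centre. Where a member had an RCGTG, the nearest was a median of 22 bp from the centre, and within 20 bp in 48.4% (44.4 to 52.4). For RCGAG these values were 39 bp and 27.7% (23.6 to 32.3). In the shared A549 peaks the nearest RCGTG was at a median of 14 bp and within 20 bp in 63.8% (59.9 to 67.6). Among all core matches in members, 47.5% were ACGTG (44.6 to 50.5), against 38.3% at all gene starts and 52.0% in the shared A549 peaks.

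**Figure D3:**
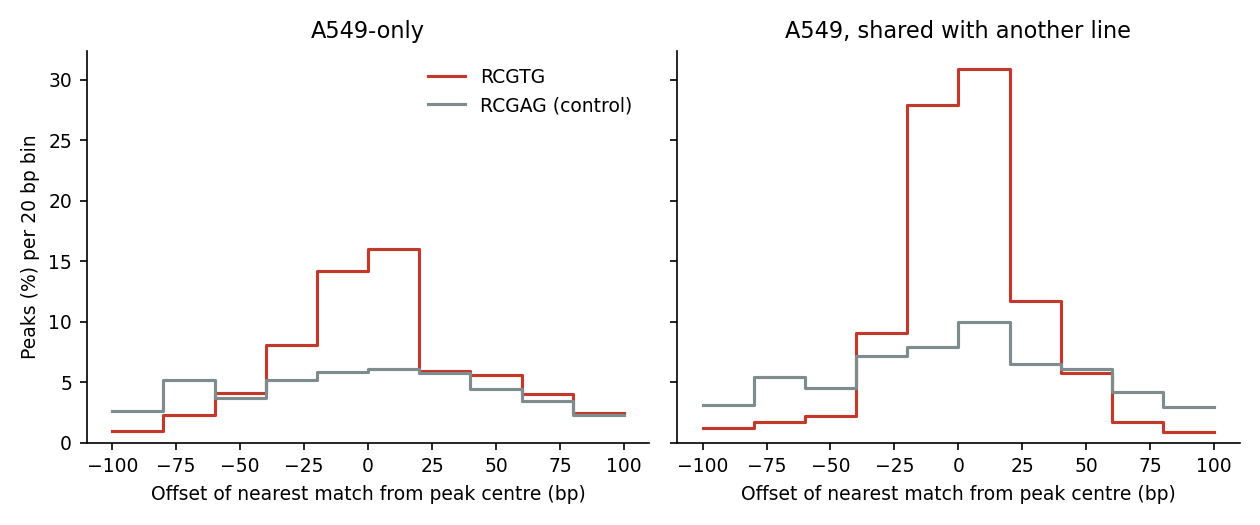
Share of peaks per 20 bp bin (y axis) by the offset of the nearest match from the peak centre (x axis, bp), for RCGTG and for the control RCGAG, in members (left) and in shared A549 peaks (right). In members the 2 central bins held 14.2% and 16.0% for RCGTG and 5.84% and 6.06% for RCGAG, and in shared peaks the central RCGTG bins held 27.9% and 30.8%.

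The share with a core followed strength and distance among the members. In 4 equal groups of members from the strongest to the weakest by tag count, RCGTG was present in 79.7%, 73.6%, 58.0% and 43.7%. ACGTG followed the same order, in 57.1%, 46.8%, 29.4% and 25.5%. By distance, RCGTG was present in 71.0% of the 286 members within 200 bp, 66.6% of those between 200 and 1000 bp and 51.7% of the 261 farther out. The share was 69.0% at protein-coding genes and 53.1% (47.5 to 58.6) at lncRNA genes. GC content moved with these shares: the median was 66.5% within 200 bp, 59.5% between 200 and 1000 bp and 52.5% beyond, and its part in the result was not tested.

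Compared with other sets of peaks by Fisher's exact test, two-sided and adjusted by the Benjamini-Hochberg method over 5 comparisons, the members held an intermediate place. RCGTG was less frequent in members than in the 642 shared A549 peaks, of which 93.0% had it (a difference of -29.2 percentage points, 95% interval -32.8 to -25.5, exact test, adjusted p = 1.46e-44). It was 27.5 points more frequent than in the 3369 A549-only peaks farther than 2500 bp from a gene start, of which 36.2% had it (24.0 to 31.0, exact test, adjusted p = 9.03e-50). The control RCGAG differed there as well, at 44.48% of members and 15.85% of these far peaks, so this difference is not particular to the core. The single-line peaks near gene starts of the other lines had it in 71.7% of 990 in HCT116 (difference -7.97, -12.1 to -3.78, exact test, adjusted p = 0.000247) and in 81.0% of 1022 in H460 (-17.3, -21.2 to -13.3, adjusted p = 1.78e-17). In RKO the share was 57.0% of 1100 (6.75, 2.47 to 11.0, exact test, adjusted p = 0.00226). The control RCGAG moved in the same direction in each comparison near gene starts. It was in 44.48% of members, 57.94% of shared A549 peaks, and 60.71% (HCT116), 56.07% (H460) and 41.82% (RKO) of the other sets. ACGTG alone was slightly more frequent in members than in HCT116-only peaks (39.72% and 37.47%). In the other comparisons ACGTG kept the direction of RCGTG. The RKO difference turned to -0.880 (exact test, adjusted p = 0.800) when every list was held to a fold of 6 over the local region, and to -0.333 (adjusted p = 0.908) for a distance of 1000 bp. The HCT116 difference did not pass at 1000 bp (-4.38, exact test, adjusted p = 0.0849). With every list at a fold of at least 14 over input neither passed, at -5.49 for HCT116 and 5.95 for RKO (exact test, adjusted p = 0.0519 for both).

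Peaks of a merged list are not replicates, so these p-values measure counting error between lists. The lists were also called at different folds over input, which had to exceed 6 for RKO, 7 for HCT116, 13 for A549 and 14 for H460. Split by tag count, the gap to the shared A549 peaks was present in each class. RCGTG occurred in 56.8% of 650 members and 80.0% of 95 shared peaks under 5 scaled tags, and in 81.2% and 91.5% from 5 to under 10. At 10 or more it occurred in 77.1% of 61 members and 96.9% of shared peaks. Strength was not matched within these classes, and the last is open, with members up to 64.2 and shared peaks up to 199.1. Median GC content also differed between the sets, at 59.5% in members, 67.0% in shared A549 peaks and 45.5% in the far A549-only peaks. In the other single-line sets near gene starts it was 59.0% (RKO), 65.5% (H460) and 70.0% (HCT116). The part of GC content in the differences was not tested.

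**Figure D4:**
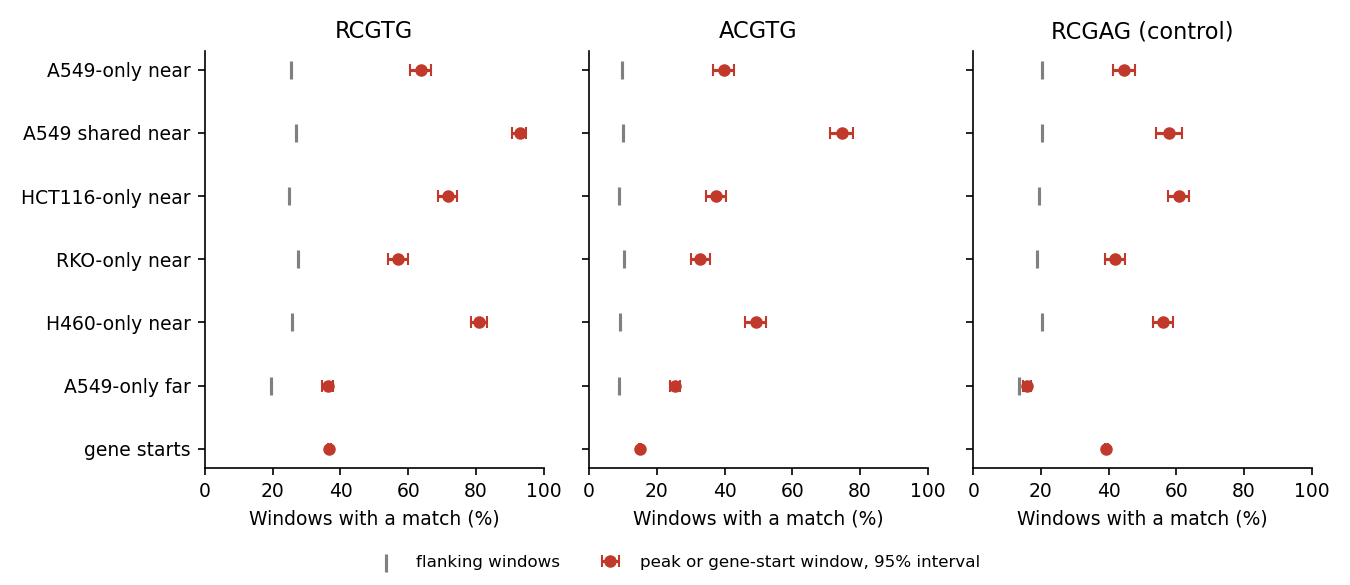
Share of 200 bp windows with RCGTG, with ACGTG and with the control RCGAG (x axes, %), with Wilson 95% intervals, for the members (A549-only near), the other peak sets and all gene starts (y axis). Grey ticks mark the flanking windows 2000 bp away, and near and far mean within or beyond 2500 bp of a gene start.

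Several strong members shared more than the core. The peaks at ART1, ENSG00000287733 and ENSG00000266976, all among the 10 strongest, resembled one another in sequence. The resemblance was noticed after their sequences had been read. The ENSG00000287733 peak aligned with the ART1 peak over 140 bp at 76.4% identity. The ENSG00000266976 peak aligned with it over 52 bp only, at 80.8%. The core windows of the members at both lncRNA genes are printed to show the common bases around ACGTG.
ENSG00000287733 core (chr7:134856280-134856308, - strand, intron): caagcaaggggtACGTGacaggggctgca
ENSG00000266976 core (chr19:29097531-29097559, - strand, 5′ of the gene, intron of other lncRNA genes): caagcatggggtACGTGactaggtggggg

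A blastn search with these 3 peaks found 19 hypoxia peaks of the 4 lines that resembled them at an E value of 1e-06 or less, the 3 members included. A549 held 15, H460 held 3, RKO held 1 and HCT116 held 0, and none of the 19 was shared between lines. The lists held 5408 hypoxia peaks in A549, 3877 in H460, 9171 in RKO and 3996 in HCT116. In A549, 924 peaks near and 3369 far from gene starts were called in that line alone, and 642 and 473 were shared. The 3 search peaks were themselves called in A549 alone, so neither the line counts nor the lack of sharing is independent of the search. All 19 had ACGTG in the central 200 bp. The 3 peaks used for the search also had it, so this count is not independent of the search. The 15 in A549 had a median of 17.2 scaled tags and ran from 4.94 to 62.3. The strongest lay on chromosome 3 (chr3:162426843-162426983), 317271 bp from the nearest gene start, and the one at APOL1 (41.9 scaled tags) missed the distance limit at 2555 bp. The H460 peaks had 47.9 at CD70, 42.9 near CLINT1 and 8.29 at TNS4, and the RKO peak had 2.69 at ACOX3. The search was chosen after the data were seen and has no test. Near-identical copies can lose reads to the mapping-quality filter, and no repeat annotation was used here.

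Another group of similar members was weak. When members were compared with one another, requiring 75% identity over 100 bp, 21 formed a group with scaled tag counts from 3.01 to 7.52 and a median of 3.87. Of these 21, 12 had RCGTG and 4 had ACGTG. In all, 25 members (2.71%, 1.84 to 3.96) resembled another member, against 1.56% of the 642 shared A549 peaks. The counts were 33 of the 1100 RKO-only peaks near gene starts and 6.59% of the 3369 A549-only peaks farther from gene starts. Each set was compared only with itself and the sets differed in size, so these shares are not directly comparable. The larger group included NFATC2IP, PGP, USP7, IRAK2 and CENPL.

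Some members held many cores. The member upstream of the lncRNA ENSG00000237370, in an intron of the collectin gene COLEC11, had 14 RCGTG matches in 200 bp and 4.94 scaled tags. Its matches came from a repeated unit with the palindrome CACGTG, which counts as a match on each strand. ZNF395, a zinc finger gene, had 12 matches at 10.1 scaled tags, and DAZAP1 (5.15) and NFIX (4.08) had 8 each. Members with 3 or more cores numbered 117, those with 2 numbered 188 and those with 1 numbered 284. The 141 bp peak at ENSG00000237370 is printed with its cores in capitals, and it holds 10 of the 14 matches.
ENSG00000237370 (chr2:3653014-3653154, + strand, intron of COLEC11): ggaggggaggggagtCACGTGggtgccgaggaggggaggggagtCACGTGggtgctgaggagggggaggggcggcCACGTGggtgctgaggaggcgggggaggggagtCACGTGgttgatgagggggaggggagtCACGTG

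In normoxia few members were called. Of the 924, 15 overlapped an A549 normoxia peak (1.62%, 0.986 to 2.66), against 3.25% of all A549 hypoxia peaks and 59 of the 642 shared A549 peaks (9.19%). The difference from the shared peaks was -7.57 percentage points (-10.1 to -5.32, Fisher's exact test, two-sided, p = 4.95e-12). Strength moved with it. In the 4 groups of equal size from strong to weak, 12, 1, 1 and 1 overlapped a normoxia peak. Under 5 scaled tags the overlap was 3 of 650 members and 0 of 95 shared peaks, which allows a share of up to 3.89% (Wilson), from 5 to under 10 it was 3.76% (1.92 to 7.24) and 2.42% (0.947 to 6.07), and at 10 or more it was 6.56% (2.58 to 15.7) and 14.4% (11.2 to 18.3). The intervals of members and shared peaks overlapped in each of these classes. Both A549 lists used the same input library.

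The members called in both conditions were mostly higher in hypoxia. GAPDH had 31.8 scaled tags in hypoxia and 10.2 in normoxia. FAM228B had 29.4 and 19.2, and ENSG00000266976 had 23.0 and 6.55. LIF, a cytokine of the interleukin-6 family, had 10.1 and 7.27, and C1QTNF6, a secreted C1q-related protein, had 9.88 and 4.12. ALKBH8, a tRNA modifying enzyme, was lower in hypoxia (3.44 and 3.64). ZNF263, MISP, GCNT3 and NPM1 were among those higher in hypoxia. These are single merged values with no test. In the other lines' normoxia lists, 1 member overlapped an HCT116 peak (KRBA2), 1 an RKO peak and 0 an H460 peak.

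A peak called in A549 alone did not always mean a gene bound in A549 alone. The nearest hypoxia peak of another line was within 100 bp of 17 members, within 500 bp of 90 and within 2500 bp of 199 (21.5%), and the median gap was 30127 bp. The smallest gaps were 2 bp at KRBA2 (7.52 scaled tags, 3.56 for the HCT116 neighbour), 7 bp at ANTKMT (8.37, and 4.91 in HCT116) and 10 bp at ZNF395 (10.1, and 12.5 in H460). Counted by gene, 1212 of 38865 gene starts had a member within 2500 bp (3.12%), and 5.39% had any A549 hypoxia peak. Of the 1212, 266 (21.9%) also had a hypoxia peak of another line and 946 did not. Another-line peaks were present at 14.3% of all gene starts. A total of 48 of the 1212 also had a shared A549 peak.

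A minority of genes had several members. There were 34 such genes, some of them counted on the same pair of peaks because their starts were close. FOXP1, a forkhead repressor, had 3 members around its start (5.80, 4.08 and 3.87 scaled tags), which also lay near the start of its divergent transcript FOXP1-DT. The lncRNA ENSG00000263756, which overlaps the bromodomain gene BRD2, also had 3 (4.29, 3.22 and 3.22). MLLT3, a subunit of the super elongation complex, had 14.6 and 8.16, and TMEM141 had 15.5 and 7.95.

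Among 30 genes of glycolysis and glucose supply, 3 had a member (10.0%), 17 had any A549 hypoxia peak and 21 had a hypoxia peak of another line. Over all gene starts these shares were 3.12%, 5.39% and 14.3%. GAPDH was bound in every line, with strongest peaks of 46.0 scaled tags in A549, 42.5 in H460, 19.6 in HCT116 and 18.8 in RKO, and its member of 31.8 stood 196 bp from an HCT116 peak. PFKL, the liver-type phosphofructokinase, had a member of 5.15, the strongest A549 peak there, beside strongest peaks of 16.3 in HCT116, 9.87 in RKO and 20.0 in H460. PFKFB4, which makes a phosphofructokinase activator, was 2135 bp from a member of 3.65 that lay nearer to the start of UCN2, in a UTR of COL7A1. No peak of another line lay within 2500 bp of the PFKFB4 start, and an RKO peak of 35.3 lay 6708 bp from the member. Of these 3 genes, GAPDH and PFKL thus had a hypoxia peak in all 4 lines. None of 13 genes of the HIF pathway and oxygen sensing had a member, and 6 had a peak of another line.

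Of 36 classical hypoxia targets 5 had a member (13.9%), against 3.12% of all gene starts. Any A549 hypoxia peak was present at 21 of the 36, against 5.39% of all gene starts. Of the 5, 2 had no peak of another line, against 946 of the 1212 gene starts with a member. PLOD2 was one of these, with 64.2. LOX, the lysyl oxidase that cross-links collagen, was the other, with 3.22. P4HA1, a collagen prolyl hydroxylase subunit, had a member of 8.16 at 1409 bp beside a strongest A549 peak of 65.5, and 37.3, 30.0 and 56.4 in HCT116, RKO and H460. CA12, a carbonic anhydrase, had 10.3 in A549 and an H460 peak of 3.44 at a gap of 504 bp. PLOD2, LOX and P4HA1 all act on collagen, and of their members the one at PLOD2 was above 10 scaled tags and the others below.

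Matrix and immediate early genes had members of which most were weak. A member lay within 2500 bp of 3.12% of all gene starts, the base for the shares of listed genes here. Any A549 hypoxia peak lay at 5.39% of all gene starts, and a hypoxia peak of another line at 14.3%. Of the 1212 gene starts with a member, 946 had no hypoxia peak of another line within 2500 bp. The counts of such genes here are to be read against that share. Among 36 TGF-beta, mesenchymal and matrix genes, 4 had a member (11.1%), and none of these 4 had a peak of another line. COL5A1, a fibrillar collagen chain, had 10.7, the integrin chain ITGB4 had 7.52, the growth factor TGFB2 had 7.30 and the laminin chain LAMA3 had 3.65. Among 30 AP-1 and immediate early genes, 9 had any A549 hypoxia peak and 11 had a peak of another line. A member was present at 7 of the 30 (23.3%), 5 with no peak of another line. These were the stress factors ATF4 (4.94) and ATF3 (4.29), the antiproliferative gene BTG2 (4.08), and EGR1 and KLF4 (3.65 each), although an H460 peak of 5.66 lay 1440 bp from the member at KLF4. IER2 had 7.30 with an H460 peak of 5.05. IER3 had its 36.3 beside strongest hypoxia peaks of 30.3 in HCT116, 6.88 in RKO and 12.7 in H460, and it also had normoxia peaks of 37.5 in HCT116, 5.99 in RKO and 20.1 in A549. All but IER2 and IER3 were under 5 scaled tags, and ATF3, EGR1, IER3 and KLF4 had no RCGTG.

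Lineage genes were represented by few members. Among 24 lung and airway epithelium markers, MUC1, a membrane mucin, had 13.5 with an HCT116 peak of 3.07 at a gap of 778 bp, and SFTPA1, a surfactant protein, had 3.65. None of 18 colon epithelium markers had a member or any A549 hypoxia peak, and 2 had a peak of another line. Of 33 NRF2 targets none had an A549 hypoxia peak, and 9 had a peak of another line. Of 30 receptor tyrosine kinase and RAS signalling genes, STK11, a tumour suppressor kinase, had a member of 3.22. Over all gene starts, 3.12% had a member, 5.39% any A549 hypoxia peak and 14.3% a hypoxia peak of another line. The lists were chosen with earlier results known, so the counts carry no test.

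**Figure D5:**
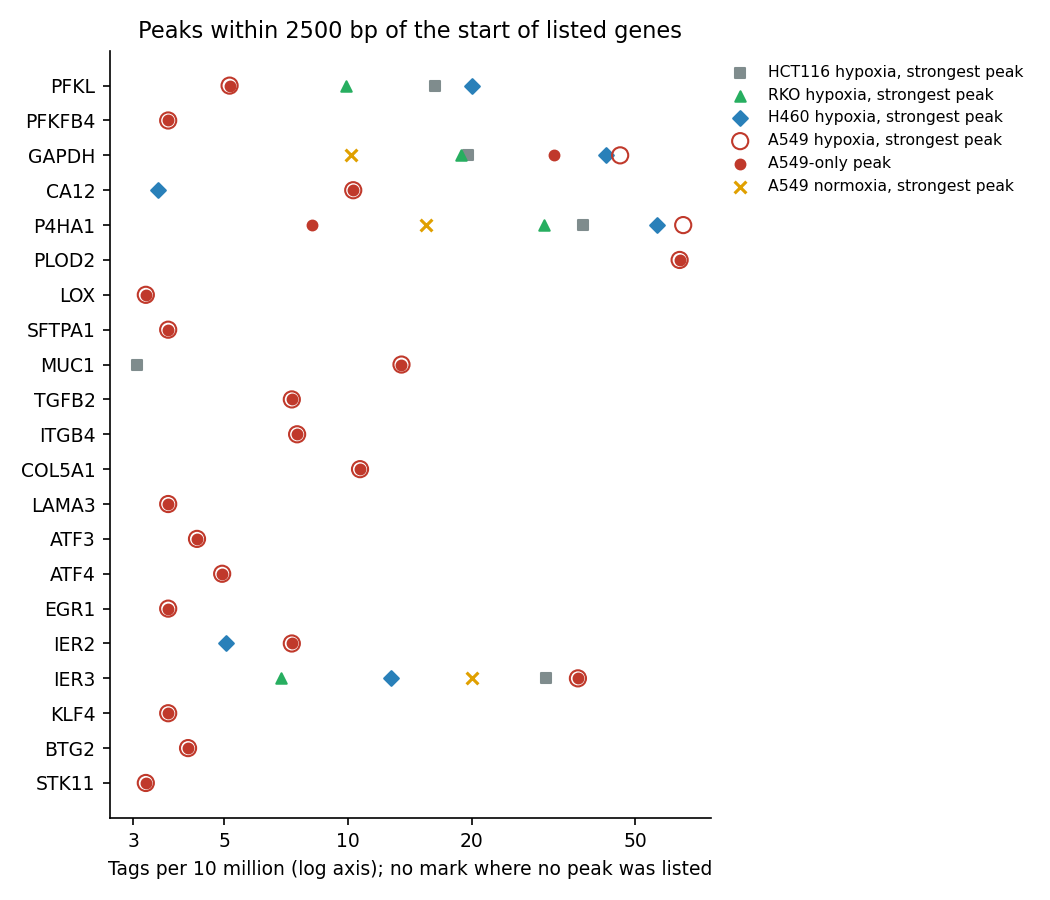
Listed genes with a member within 2500 bp of their start (y axis) and the scaled tag counts of their peaks (x axis, tags per 10 M, log axis): the member as a filled red point, the strongest A549 hypoxia peak as an open circle, the strongest hypoxia peak of the other lines and the strongest A549 normoxia peak by their own marks. No mark means that the list held no peak there, and at GAPDH and P4HA1 the open circle stands apart from the member because a stronger shared A549 peak lay nearby.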

How the data were processed

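HIF1A ChIP-seq was made in 4 lines in normoxia and after 24 h of hypoxia. The submitters' processing notes name bcl2fastq, FastQC 0.11.5, Bowtie2 2.2.9, SAMtools 1.3.1, Picard 1.129 and HOMER 4.3. The authors aligned reads to GRCh37, kept a mapping quality above 10 and, per the file headers, merged both replicates and called peaks against the input of the line. The deposited signal is the tag count of a peak per 10 M tags of the merged library, the deposited fraction is the focus ratio, and the deposited fold ratios compare a peak with input and with the surrounding 10000 bp. The labels of the A549 and RKO inputs disagree between title and description, and which input entered which list was not given beyond the headers. Single samples' reads were not used here. Totals were 46.6 M tags in A549 hypoxia and 41.2 M in A549 normoxia, and 41.2 to 81.5 M over the 8 lists (1 M is 1000000). The weakest A549 hypoxia peaks held 11 tags.

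Computed here: regions, distances to the starts of GENCODE release 44 genes mapped to GRCh37, motifs on both strands in 200 bp, overlaps of at least 1 bp, Wilson and Newcombe 95% intervals and Fisher's exact tests (Python 3.11.15, SciPy 1.17.1, pysam 0.24.0, blastn 2.17.0). Gene start windows excluded chromosome Y and unknown bases. Intervals cover counting error only. The steps were tested on simulated peaks. Groups came from titles. Some items are not reported here. Members named were the 12 strongest, those overlapping normoxia peaks, those near genes of 9 lists, those at the distance limit, those of genes with several members, those with most cores and those with the smallest gaps. The members and lists were chosen with earlier results of these data known.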

Additional observations from a re-analysis of the deposited data

How the results depend on the processing

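No paired analysis was possible because the replicates were merged before peak calling, so that neither a replicate block nor the omission of a replicate could be run. Holding peaks to a fold of 6 over the local region left 500 members, of which 75.2% had RCGTG. That share was 67.7% with every list at a fold of 14 over input, 68.5% for a distance of 1000 bp, 58.2% for 5000 bp, 59.8% with every transcript start and 48.5% in a 100 bp window. The difference from HCT116-only peaks fell short of the threshold at a fold of 14 over input (-5.49, exact test, adjusted p = 0.0519) and at 1000 bp (-4.38, adjusted p = 0.0849). The difference from RKO-only peaks turned to -0.880 (exact test, adjusted p = 0.800) at a local fold of 6 and to -0.333 (adjusted p = 0.908) at 1000 bp, and was 5.95 (adjusted p = 0.0519) at a fold of 14 over input; the cause was not tested. The other 3 RCGTG and normoxia differences within A549 and the difference from H460-only peaks kept their direction and their side of the threshold under every alternative run, with ranges of -35.0 to -19.9 against shared A549 peaks, 22.3 to 31.2 against A549-only peaks far from gene starts, -21.0 to -11.6 against H460-only peaks and -8.89 to -7.21 for the normoxia overlap. The 19 peaks resembling the ART1 peak also passed an E value of 1e-10, a setting added once the data had been seen. The median member rested on 19 tags, so absence of a call in another line does not show absence of binding.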

Other observations

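Members were spread over 22 autosomes and chromosome X. Chromosome X held 40 of the 924 (4.33%), against 3.18% of gene starts, 18 of the 642 shared A549 peaks (2.80%), and 0.505%, 1.09% and 3.43% of the peaks called near gene starts in HCT116, RKO or H460 alone. Chromosome 9 held 5.30% of members and 3.70% of gene starts, and chromosome 15 held 4.87% and 3.59%. Copy number of the lines was not used here, and its part in these shares was not tested.

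Motifs of other factors were counted in the same windows. TGANTCA, the site of AP-1, was in 8.55% of members (6.91 to 10.5), 5.84% of their flanks, 5.33% of gene starts and 18.5% of A549-only peaks far from gene starts. GGGCGG, the SP site, was in 35.9% of members, 33.1% of gene starts, 57.3% of shared A549 peaks and 60.7% of HCT116-only peaks near gene starts. CCGGAAG, the ETS site, was in 5.95% of members, 7.12% of gene starts and 11.7% of shared A549 peaks. A match is a run of letters and was not tested as a site.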
